A study of Mus musculus with 7 samples.

Results

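Cajal-Retzius cells of the embryonic mouse cortex were taken from single-cell libraries by a rule on raw counts of unique molecular identifiers (UMIs), each of which stands for 1 captured transcript. A bead barcode was kept with no more than 10% of mitochondrial UMIs and 500 or more genes detected. The cells were then selected on their measured UMIs of 10 genes. A kept barcode was counted as a Cajal-Retzius cell when it held at least 2 Reln UMIs, at least 1 UMI summed over Trp73, Lhx1, Lhx5, Ndnf, Cacna2d2 and Nhlh2, and none of Gad1, Gad2 or Lhx6. The rule found 492 barcodes among 23005 kept ones (2.14%). Cortices came from 1 litter of a cross between an Emx1CreERT2;Ash1lfl/fl father and an Ash1lfl/fl mother, harvested at E18.5. The 4 mutants (Emx1CreERT2;Ash1lfl/fl, replicates 10, 11, 12 and 17) and the 3 controls (Ash1lfl/fl without the Cre, replicates 14, 15 and 16) shared the floxed allele, and all were exposed to 100 mg/kg tamoxifen given to the dam at E10.5. The Cre is driven by Emx1, which marks progenitors of the dorsal telencephalon. Which of the cells studied here came from progenitors that had recombined is not recorded in the labels.

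Cajal-Retzius cells are among the earliest neurons of the cortex and lie in its outermost layer, the marginal zone, beneath the meninges. They arise largely at the borders of the cortical sheet, such as the cortical hem and the septum, and spread over the surface, drawn by the chemokine receptor Cxcr4 and the meningeal ligand Cxcl12. Their best known product is reelin, a large secreted protein that binds the receptors Lrp8 (ApoER2) and Vldlr on migrating neurons, leads to phosphorylation of the adaptor Dab1 by Fyn and Src, and so guides the layering of the cortex. Most of these neurons die after birth.

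Each embryo gave 1 Seq-Well library, a method that captures single cells on barcoded beads in small wells. Libraries held 7083225 to 11859209 UMIs and 2114 to 4285 kept barcodes. The Cajal-Retzius cells gave 52 to 98 barcodes and 109852 to 346047 UMIs an embryo. They were deeper than the other kept barcodes in 6 of 7 embryos, with a median of 1830 UMIs against 1388. No barcode of a Cajal-Retzius cell was kept in another library, where pairs of libraries shared 2 to 6 kept barcodes. Ash1l, the targeted histone methyltransferase, was read in every embryo. In the Cajal-Retzius cells its level, as UMIs scaled to a common total of 1000000 for each sum (CPM), was 198, 71.3, 266 and 128 in mutants 10, 11, 12 and 17, and 132, 240 and 210 in controls 14, 15 and 16. The groups overlapped. These tags do not show whether they come from the floxed part of the gene, so the levels check neither the labels nor recombination. Libraries of control 16 and mutant 17 stood apart among barcodes just outside the rule, as described with those barcodes.

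The genes of the rule are given as a description, because they chose the cells. Reln made up 1.22% of all UMIs of the Cajal-Retzius cells and 0.00924% of those of the other kept barcodes. Its level in the Cajal-Retzius cells was 16603, 13625, 15138 and 11683 CPM in mutants 10, 11, 12 and 17, while controls 14, 15 and 16 had 13231, 10024 and 8458 CPM. A barcode held 2 to 433 Reln UMIs, and the median per embryo was 12 to 34 in the mutants, 16 and 19 in controls 14 and 15, and lowest in control 16. The second markers are transcription factors (Trp73, a relative of p53; the LIM-homeodomain factors Lhx1 and Lhx5; the helix-loop-helix factor Nhlh2), a secreted neurotrophic factor (Ndnf) and a calcium channel subunit (Cacna2d2). At least 1 UMI of Ndnf was found in 67.9% of the cells, of Nhlh2 in 58.3%, of Trp73 in 51.4%, of Cacna2d2 in 43.7%, of Lhx5 in 27.6% and of Lhx1 in 13.4%.

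The same genes were read in excitatory neurons, again as a description. The rule chose the Cajal-Retzius cells by these genes, and the excitatory neurons were taken from barcodes it left out. They were 6623 kept barcodes outside the rule with at least 2 UMIs of Neurod2 and Neurod6 together and none of Gad1, Gad2 or Lhx6, and their median depth, 2221 UMIs, was above the 1830 of the Cajal-Retzius cells. Trp73 was detected in 0.106% of them, Ndnf in 0.468%, Lhx5 in 0.242%, Lhx1 in 0.151% and Nhlh2 in 4.12%. After every barcode was thinned to 1000 UMIs, 404 Cajal-Retzius cells (88 were too shallow) and 5808 excitatory neurons (815 too shallow) were left. Trp73 was then found in 30.9% against 0.0861%, and Ndnf in 49.8% against 0.207%. Both classes were chosen at full depth, so thinning does not take out the effect of that choice.

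The cells varied in how many of the second markers they carried. Of the 492, 177 had UMIs of 1 of the 6 genes, 93 of 2, 67 of 3, 74 of 4, 55 of 5 and 26 of all 6. A transcription factor among them was detected in 387 cells, and 105 cells entered through Ndnf or Cacna2d2 only. These groups differed in genes the rule did not use, given here as pooled CPM with no test. Ebf3, a transcription factor of Cajal-Retzius cells, stood at 241 in the 387 cells and at 66.2 in the 105. Calb2, which encodes calretinin, stood at 320 and 94.6, and Pcp4, a calmodulin regulator, at 546 and 89.8. Fabp7, a fatty acid binding protein of radial glia, went the other way, with 323 and 1106, and Neurod6, a factor of excitatory neurons, stood at 158 and 251. The 387 cells were also deeper, with a median of 2029 UMIs against 1381. A split by Trp73 gave the same order: Ebf3 stood at 270 in the 253 cells with Trp73 and at 93.3 in the 239 without it, whose median depths were 2475 and 1407 UMIs.

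Barcodes near the limits of the rule carried less Ebf3 than the cells with a transcription factor marker, from 6.40 to 82.8 CPM. These values are pooled over few barcodes and were not tested. The 51 cells with exactly 2 Reln UMIs had 9.49 CPM of Ebf3 and 1224 CPM of Fabp7; 22 of them came from control 16, 11 from mutant 17 and 0 from mutant 12. The 148 cells with a single UMI of the second markers had 66.9 CPM of Ebf3 and 1189 CPM of Fabp7. Just outside, 107 barcodes with 1 Reln UMI and a second marker had 6.40 CPM of Ebf3. Another 416 barcodes had at least 2 Reln UMIs but no second marker, with 17.9 CPM of Ebf3, and 101 and 150 of them came from control 16 and mutant 17 against 24 to 49 from each of the other embryos. A further 57 met both gene conditions but held Gad1, Gad2 or Lhx6. Those 57 had 82.8 CPM of Ebf3, 143 CPM of the interneuron factor Dlx1 and a median of 3115 UMIs.

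Promoter windows of 250 bases before the annotated start are shown for the genes on which the identity of these cells rests: Reln and Trp73 from the rule, Ebf3 as the transcription factor with the largest difference outside it, Tbr1 as the shared factor of early cortical neurons, and Lhx1, whose start lies 125 bases from that of the noncoding RNA Lhx1os. Sequences are RefSeq's on GRCm38.p6, read 5′ to 3′ on the strand of the gene. Capitals mark the homeodomain core TAATTA and the E-box CAGCTG. Reln lies on the minus strand with its window at chr5:22344706-22344955. The windows of the minus-strand genes Trp73, Ebf3 and Lhx1 are chr4:154139876-154140125, chr7:137314446-137314695 and chr11:84525535-84525784. Tbr1 is on the plus strand, and its window is chr2:61804203-61804452.
Reln: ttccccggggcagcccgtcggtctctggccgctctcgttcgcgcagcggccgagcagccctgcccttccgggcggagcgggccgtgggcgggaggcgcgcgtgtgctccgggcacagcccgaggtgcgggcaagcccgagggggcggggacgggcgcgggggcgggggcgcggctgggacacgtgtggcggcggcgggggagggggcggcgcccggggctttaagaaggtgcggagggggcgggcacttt
Trp73: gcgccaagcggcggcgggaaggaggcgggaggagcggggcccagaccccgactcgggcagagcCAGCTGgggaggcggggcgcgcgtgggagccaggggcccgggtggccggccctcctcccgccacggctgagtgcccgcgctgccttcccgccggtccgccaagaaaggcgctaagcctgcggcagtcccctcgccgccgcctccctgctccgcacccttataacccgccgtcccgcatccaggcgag
Ebf3: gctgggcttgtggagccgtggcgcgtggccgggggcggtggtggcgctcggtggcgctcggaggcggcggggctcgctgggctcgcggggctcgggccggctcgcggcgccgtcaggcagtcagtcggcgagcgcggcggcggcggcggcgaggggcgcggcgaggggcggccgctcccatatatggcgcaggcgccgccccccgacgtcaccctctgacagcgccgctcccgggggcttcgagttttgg
Tbr1: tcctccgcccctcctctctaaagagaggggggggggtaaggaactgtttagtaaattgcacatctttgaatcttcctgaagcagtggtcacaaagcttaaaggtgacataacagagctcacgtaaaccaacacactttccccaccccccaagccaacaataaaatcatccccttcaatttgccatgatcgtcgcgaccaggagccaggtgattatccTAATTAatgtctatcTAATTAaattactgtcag
Lhx1: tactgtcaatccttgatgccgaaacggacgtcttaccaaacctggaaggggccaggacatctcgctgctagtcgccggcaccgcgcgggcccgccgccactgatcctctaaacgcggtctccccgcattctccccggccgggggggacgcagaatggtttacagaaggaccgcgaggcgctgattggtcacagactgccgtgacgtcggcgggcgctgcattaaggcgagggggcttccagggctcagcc
The Tbr1 window held TAATTA at 33 and at 18 bases before the start. The upstream Trp73 window held CAGCTG at 187 bases before the start, and the Reln, Ebf3 and Lhx1 windows held none of the motifs searched. A second, downstream Trp73 window at chr4:154097174-154097423, not shown, held none of them either. Which Trp73 start these cells use was not tested. Base composition ranged from 80% G and C in the Reln and Ebf3 windows to 45.2% in that of Tbr1. RefSeq windows were found for 28 of 37 genes of the rule and of the Cajal-Retzius list, 35 windows in all. Both strands were searched for TAATTA, for the EBF motif (TCCC, any 2 bases, then GGGA) and for the E-boxes CAGCTG and CATATG. The homeodomain core was in 5.71% of the windows against 4.84% of 32851 promoters of the same length, the EBF motif in 0 against 0.779%, CAGCTG in 2.86% against 13%, and CATATG in 2.86% against 3.46%. A match describes letters in a window and is not a site of binding.

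The share of kept barcodes that were Cajal-Retzius cells did not separate the genotypes. It was 2.70% in mutant 10 (95% Wilson interval 2.09 to 3.48), 2.22% in mutant 11 (1.76 to 2.80), 1.40% in mutant 12 (1.07 to 1.83) and 2.20% in mutant 17 (1.77 to 2.73). In the controls it was 2.72% in replicate 14 (2.12 to 3.49), 1.93% in replicate 15 (1.54 to 2.41) and 2.29% in replicate 16 (1.88 to 2.78). The intervals cover counting error only. Mutant 12 was the lowest and control 14 the highest, and the other embryos lay between them in mixed order. The mutant mean was 2.13% ± 0.537 (SD, n = 4) and the control mean 2.31% ± 0.400 (SD, n = 3), a difference of −0.184 percentage points (two-sided exact permutation test over 35 splits, p = 0.571; the smallest p this design allows is 0.0286). Thinned to 1000 UMIs, the means were 2.07% and 2.05%. Among 5 measures compared in this way, the median mitochondrial share of the Cajal-Retzius cells was lower in all 4 mutants than in every control, 2.93% ± 0.321 against 3.90% ± 0.845 (exact permutation p = 0.0286, 0.143 after Benjamini-Hochberg adjustment over the 5). It was lower than in the other kept barcodes of the same library in 7 of 7 embryos.

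**Figure D1:**
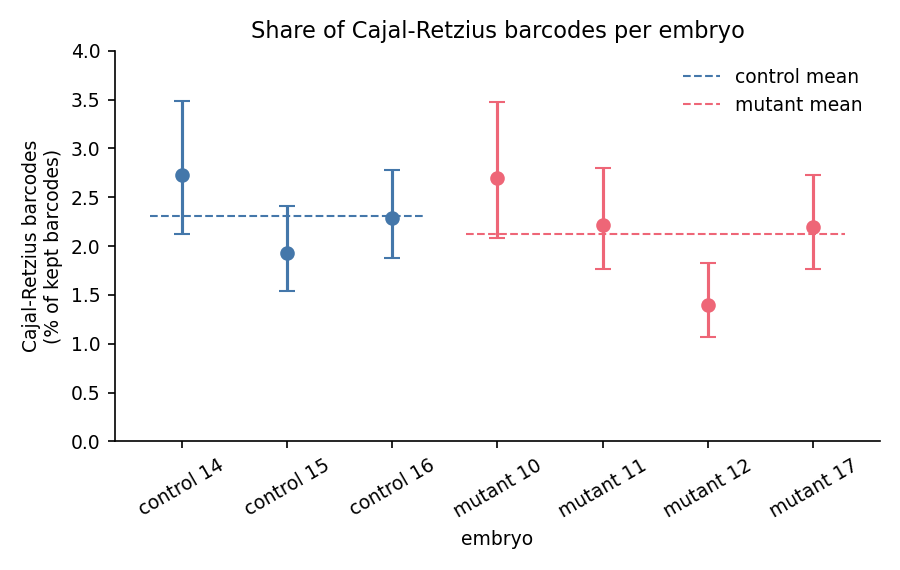
Share of kept barcodes that met the Cajal-Retzius rule, in percent (y axis), for each embryo (x axis), with 95% Wilson intervals as bars and the mean of each genotype as a dashed line. The 4 mutants span 1.40% to 2.70% and the 3 controls 1.93% to 2.72%, so the genotypes overlap.

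To ask which genes outside the rule distinguish these neurons, UMIs were summed per embryo over the Cajal-Retzius cells and over all other kept barcodes and compared with edgeR's quasi-likelihood test, with the embryo as a block. Of the known Cajal-Retzius genes that took no part in the rule most were higher, among them the transcription factor Ebf3. Of 11336 genes tested, 1486 were higher (13.1% of those tested) and 1747 lower (15.4%) at an adjusted p under 0.05, 28.5% in either direction, and the median log2 fold change of all genes was −0.07. A list of 30 further Cajal-Retzius genes had 27 tested members, of which 22 were higher, 3 lower and 2 passed in neither direction, with a median log2 fold change of 2.57. The 22 include the noncoding RNA Lhx1os, which is not independent of the rule, as described with the genes of largest difference. The list itself was chosen with earlier results of these data known. Its counts here and in the later comparisons are therefore not independent support for the identity of the cells. Barhl2, Nhlh1 and Lmx1a were too low to be tested and were detected in 7.72%, 4.88% and 2.85% of the cells, against 0.151%, 0.906% and 0.106% of the excitatory neurons.

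Of the listed transcription factors tested, most were higher. Ebf3 was at 260, 211, 220 and 135 CPM in mutants 10, 11, 12 and 17 and at 282, 216 and 185 CPM in controls 14, 15 and 16. In the other kept barcodes it ranged from 0.723 to 4.19 CPM over the same embryos, so each embryo showed the difference and mutant 17 had the lowest level. The log2 fold change was 6.62 (SE 0.24, 98.4-fold; edgeR quasi-likelihood test, adjusted p = 1.15e-43). Its relative Ebf2 was 51.7-fold higher, while Ebf1 did not pass (log2 fold change 0.48, SE 0.43, adjusted p = 0.439). Mab21l1, a gene of eye and brain development, was 85.3-fold higher. The zinc-finger factors Zic1, Zic2 and Zic4, which mark midline and septal territories, had log2 fold changes of 2.91, 3.58 and 2.67. Emx2 (2.30) and Dmrta2 (1.75), patterning factors of the medial cortex, the nuclear receptor Nr2f2 (2.39) and the T-box factor Tbr1 (1.26) were higher too. The related nuclear receptor Nr2f1 was lower, at −0.71, and so was Eomes, a factor of intermediate progenitors, at −0.63.

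Calcium-binding and signalling genes of the list are given next. Calb2 was at 304, 320, 229 and 363 CPM in mutants 10, 11, 12 and 17 and at 214, 368 and 235 CPM in controls 14, 15 and 16, all above the 19.7 to 34.0 CPM of the other kept barcodes. It was 10.9-fold higher (log2 fold change 3.44, SE 0.13). Pcp4 was 14.0-fold higher, at 463 ± 99.5 against 33.2 ± 4.50 CPM (SD, n = 7). The netrin receptor Unc5b had a log2 fold change of 4.41, the zinc-knuckle gene Zcchc12 3.49 and the cell-cycle inhibitor Cdkn1a 2.83. Cntnap2 (2.24), a neurexin-like adhesion protein, Rspo3 (1.37), a Wnt signal enhancer, and the adhesion molecule nectin-1 (Pvrl1, 1.05) were also higher. The Eomes call was lost in 8 of 21 alternative settings. Spock1, a matrix proteoglycan, did not pass (0.74, adjusted p = 0.132).

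**Figure D2:**
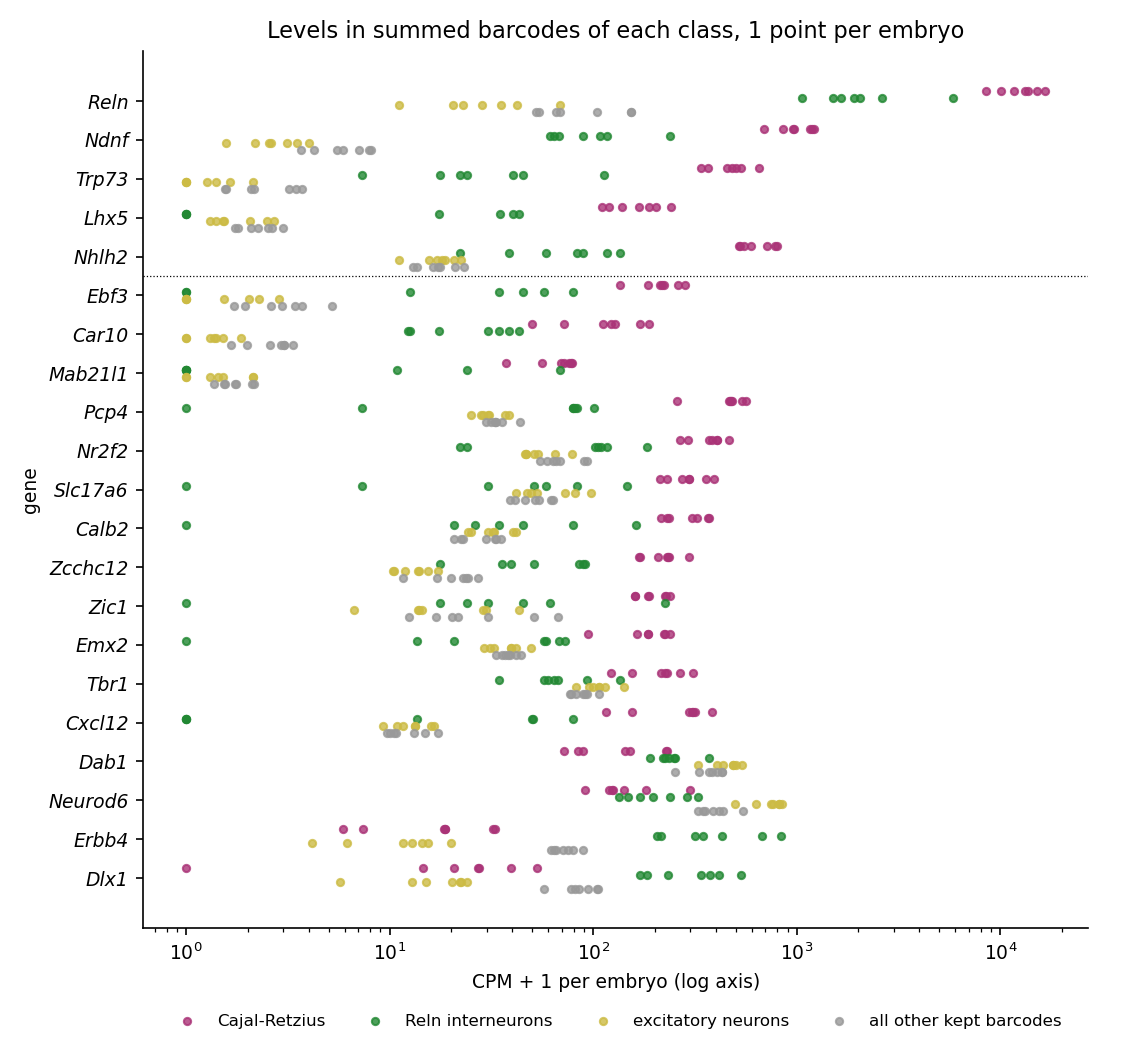
Level of 21 genes in CPM + 1 (log axis) in the Cajal-Retzius cells, Reln interneurons, excitatory neurons and all other kept barcodes, 1 point for each embryo and class. Genes of the rule (Reln, Ndnf, Trp73, Lhx5, Nhlh2) stand apart behind a dotted line, and among the genes outside it Ebf3 lies between 135 and 282 CPM in the Cajal-Retzius cells and at or below 4.19 CPM in all other kept barcodes.

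The largest differences, among genes with at least 10 UMIs in the Cajal-Retzius cells and the same direction in every embryo, included genes of no fixed list. The noncoding RNA 1500016L03Rik, annotated as Lhx1os at chr11:84525660-84535831 on the plus strand, led with a log2 fold change of 7.33. It starts 125 bases from Lhx1, a gene of the rule, and the strand setting of the counting is not given in the sources used here, so it is not independent of the rule. The noncoding RNAs RP24-351J24.2 (7.19) and 5930412G12Rik (7.02) came next, with 63 and 38 UMIs in all Cajal-Retzius cells together. Among coding genes, Samd3 (6.69) and the potassium channel Kcnj5 (6.68) lay just above Ebf3, and the immune checkpoint ligand Cd274 (6.19), the ATP-gated channel P2rx5 (6.15) and the carbonic anhydrase-related protein Car10 (6.11) below it. The bone morphogenetic protein family member Gdf5 (5.68), Thsd7b (5.63), Fam159b (5.58), the phosphatase and coactivator Eya2 (5.51), acetylcholinesterase (Ache, 5.38), the zinc-finger factor Insm2 (5.33), the receptor Gpr149 (5.30) and the calcineurin regulator Rcan2 (5.23) were also among the 20 highest. Cd274 was at 115 ± 38.2 CPM against 1.47 ± 0.776, and Rcan2 at 329 ± 48.5 against 8.57 ± 1.46 (SD, n = 7). Each was higher in 7 of 7 embryos.

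Under the same limits, the 10 lowest genes included the imprinted noncoding RNA H19 (−2.40), the growth factor Tgfb2 (−2.32), the condensin subunit Ncapg (−2.26), the mitotic kinesin Kif11 (−2.24), Id3 (−2.22), an inhibitor of helix-loop-helix factors, Kazn (−2.18), Veph1 (−2.16), the mitotic kinase Cdk1 (−2.16) and the bicarbonate transporter Slc4a4 (−2.15). All 12 radial glia genes tested were lower, as were 9 of 10 cycling genes, the exception being Cenpf at 0.63. Fabp7 was still read at 415 ± 134 CPM against 1274 ± 130 in the other kept barcodes (SD, n = 7). Its level was higher in the Cajal-Retzius barcodes near the limits of the rule, as given above. Of the 17 interneuron genes tested 14 were lower, in cells that the rule required to lack Gad1, Gad2 and Lhx6. All but Plxnd1 of 14 upper-layer genes were lower. In the deep-layer list 8 of 13 were lower and Nxph4 (3.15), Wnt7b (1.42) and Nfia (0.56) were higher. Of 9 excitatory neuron genes 5 were lower, and Nrn1 (2.53) and Tbr1 were higher. The counts of these lists stand beside 13.1% of all genes higher and 15.4% lower.

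**Figure D3:**
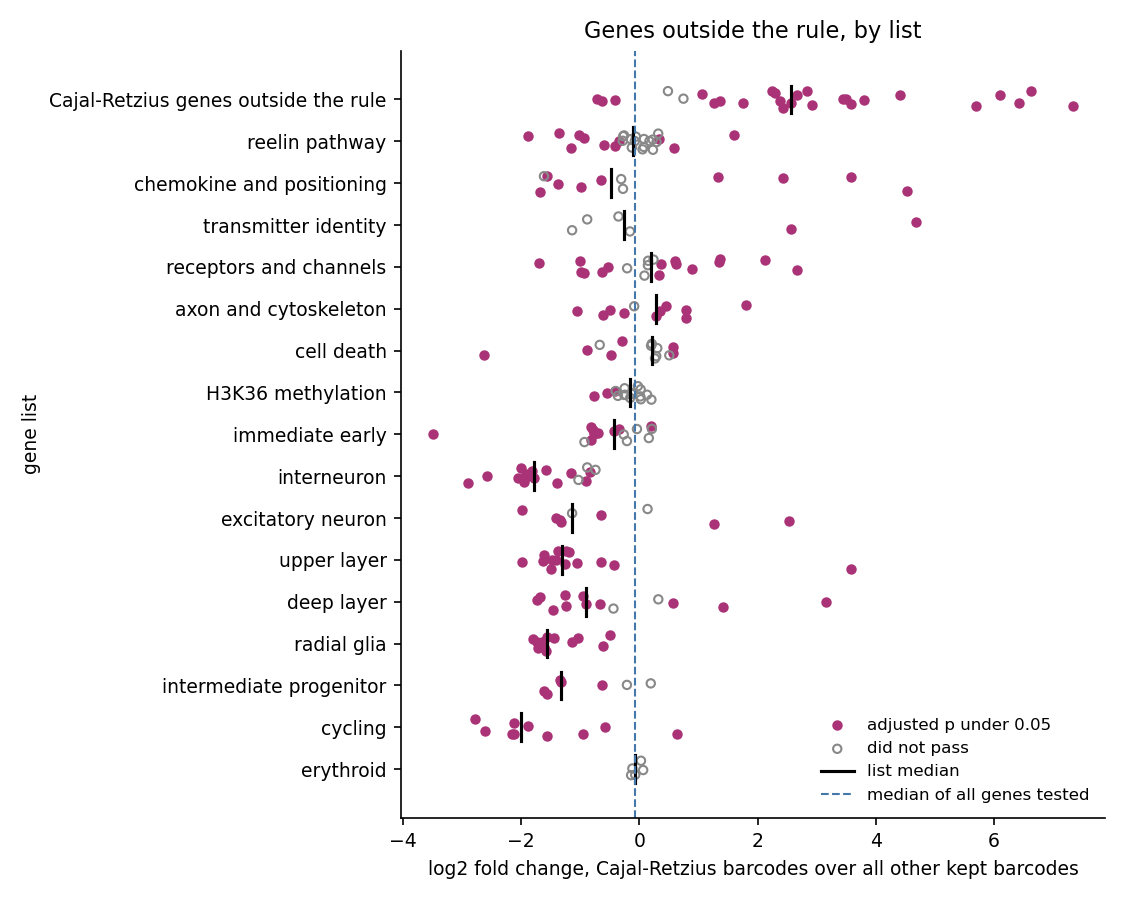
Log2 fold change of Cajal-Retzius cells against all other kept barcodes (x axis) for the tested genes of each list (y axis). Filled points passed an adjusted p of 0.05, black bars are list medians and the dashed line is the median of all genes; the Cajal-Retzius list has its median at 2.57, and that of the radial glia genes is at −1.57.

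Of the genes that receive the reelin signal, the adaptor Dab1 and the receptor Lrp8 were lower in the Cajal-Retzius cells than elsewhere, while the receptor Vldlr did not pass. Dab1 was at 70.5, 83.3, 88.2 and 228 CPM in mutants 10, 11, 12 and 17 and at 150, 142 and 226 CPM in controls 14, 15 and 16. In the other kept barcodes it was at 250 to 426 CPM and exceeded the Cajal-Retzius cells in each embryo. The log2 fold change was −1.36 (SE 0.11, edgeR adjusted p = 1.42e-19). Lrp8 was at 98.5 to 135 CPM in the Cajal-Retzius cells and at 138 to 189 CPM in the others, with no overlap (−0.60, SE 0.12, adjusted p = 2.73e-05). Vldlr was at 78.5 ± 33.4 against 86.6 ± 6.49 CPM (SD, n = 7; −0.13, SE 0.16, adjusted p = 0.596).

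Over the 26 genes of the reelin pathway list 3 were higher, 8 lower and 15 passed in neither direction, with a median of −0.10 beside −0.07 for all genes. The share called, 11 of 26, stands beside 28.5% over all genes. Besides Dab1 and Lrp8, the lower genes were the reelin-cleaving protease Adamts3 (−1.89), the microtubule-binding protein Dcx (−1.15), nectin-3 (Pvrl3, −1.02), the protease inhibitor Serpini1 (−0.94), N-cadherin (Cdh2, −0.42) and the kinase Fyn (−0.35). The higher genes were the integrin subunit Itga3 (1.60), the kinase Src (0.58) and the Lis1 gene Pafah1b1 (0.34). Nectin-3 sits on migrating neurons as the partner of nectin-1 on Cajal-Retzius cells, and its level was 31.0 ± 8.84 CPM here against 65.8 ± 9.92, the reverse of Pvrl1 at 63.4 ± 24.3 against 28.7 ± 3.75 (SD, n = 7). Among those that passed in neither direction, the adaptors Crk (0.08) and Crkl (−0.27), the exchange factor Rapgef1 (−0.15), the GTPases Rap1a (0.32) and Rap1b (0.23), the ubiquitin ligase parts Cul5 (−0.28), Socs7 (0.29) and Rnf7 (0.05) and the integrin Itgb1 (0.23) stayed within 0.32 of 0. So did the kinases Cdk5 (0.17) and Limk1 (−0.06), the Cdk5 activator Cdk5r1 (−0.08), the ephrin Efnb3 (−0.26) and the protease Furin (0.07).

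**Figure D4:**
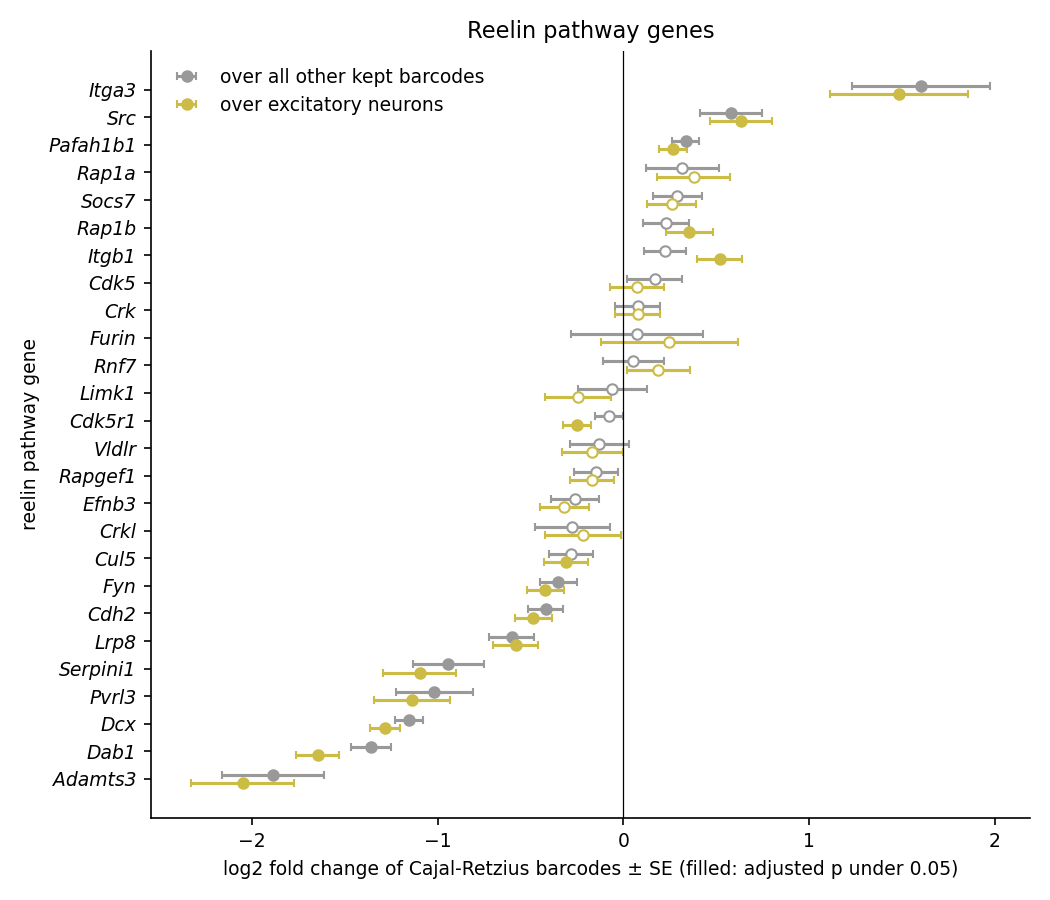
Log2 fold change with its standard error (x axis) for the 26 reelin pathway genes (y axis), Cajal-Retzius cells against all other kept barcodes in grey and against excitatory neurons in yellow; filled points passed an adjusted p of 0.05. Adamts3, Dab1 and Dcx lie farthest below 0 in both comparisons, and Itga3 farthest above it.

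Genes of positioning and guidance moved in both directions. Cxcl12, the chemokine ligand, was at 309, 295, 115 and 316 CPM in mutants 10, 11, 12 and 17 and at 305, 382 and 154 CPM in controls 14, 15 and 16. Mutant 12 and control 16 were the lowest of their groups, and both were above the 8.73 to 16.3 CPM of the other kept barcodes. It was 23.1-fold higher (log2 fold change 4.53, SE 0.17), and the receptor Cxcr4 5.37-fold. The semaphorin receptor Plxnd1 (3.58) and the growth factor Vegfa (1.33) were also higher. Plexin A2 (Plxna2, −1.57), the neuropilins Nrp1 (−1.39) and Nrp2 (−0.99), the ephrin receptor Ephb1 (−1.69) and the Slit receptor Robo1 (−0.65) were lower, while Ackr3, Slit2 and Sema3e passed in neither direction. Meningeal markers were read beside Cxcl12, which meninges also express. Of 12 meningeal genes 8 were too low to be tested, of which Dcn, Aldh1a2 and Slc6a13 had no UMI in the 492 cells. Igf2, Col1a2 and Ptgds were tested and did not pass (0.50, −0.68 and −1.25). Against excitatory neurons both meningeal genes tested were higher, Cxcl12 at 4.45 and Igf2 at 2.19. The summed level of the 12 was 159 to 461 CPM against 32.1 to 115 in the other kept barcodes, with Cxcl12 as the only member that passed.

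Of 6 transmitter genes tested, the 2 that passed encode vesicular glutamate transporters, in cells that the rule required to lack Gad1 and Gad2. The share called, 2 of 6, stands beside 28.5% over all genes. Slc17a6, the vesicular glutamate transporter VGLUT2, was at 357, 391, 229 and 296 CPM in mutants 10, 11, 12 and 17 and at 273, 211 and 295 CPM in controls 14, 15 and 16, against 37.8 to 62.4 CPM in the other kept barcodes. It was 5.95-fold higher. Slc17a8, which encodes VGLUT3, was higher from a low level, at 13.2 ± 5.47 against 0.492 ± 0.292 CPM (SD, n = 7). Slc17a7, for VGLUT1, and Slc32a1, for the GABA transporter of vesicles, did not pass (−1.14 and −0.88, adjusted p = 0.179 and 0.154 in edgeR). Of 20 receptors and channels 9 were higher and 6 lower, beside 13.1% and 15.4% of all genes. The adrenergic receptor Adra2a (2.66), the NMDA receptor subunits Grin3a (2.12) and Grin1 (1.36) and the AMPA subunit Gria4 (1.35) were higher, and Gria2 (−0.99), Grin2b (−1.01) and the potassium channels Kcnq3 (−0.93) and Kcna1 (−1.70) were lower.

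Axonal genes gave 6 higher and 4 lower of 11 tested, beside 13.1% and 15.4% of all genes. The growth cone protein Gap43 was at 1427 ± 263 CPM against 413 ± 126 (SD, n = 7; log2 fold change 1.81). Ina (0.79), Tubb2a (0.80), L1cam (0.45), Stmn2 (0.34) and Map1b (0.28) were higher. The neurofilament genes Nefl (−0.62) and Nefm (−1.06), Tubb3 (−0.26) and Cntn2 (−0.50) were lower. Of 13 cell death and survival genes 2 were higher, near the 13.1% of all genes, and 4 lower, beside 15.4%. The higher genes were Bcl2l1 (0.57) and Xiap (0.56), which protect from cell death, and the lower ones included Bcl2l11 (−0.89), Pmaip1 (−2.64) and Trp53 (−0.47). Pmaip1 and Bcl2l11 promote cell death. The Pmaip1 level was low, at 1.33 ± 2.49 against 8.20 ± 2.93 CPM, with an SD above its mean in the Cajal-Retzius cells, so the size of its difference is uncertain. The other 7 genes of the list passed in neither direction. Among 17 genes that write, read or remove histone methylation, most of it at H3K36 or H3K27, none was higher and 3 were lower, a share near the 15.4% of all genes. They were Ezh2 (−0.77), Kdm2b (−0.55) and Whsc1l1 (−0.42), the last lost in 7 of 21 settings. Ash1l itself stood at 176 ± 66.3 against 171 ± 31.3 CPM (log2 fold change 0.02, adjusted p = 0.903). Of 15 immediate early genes 8 were lower, beside 15.4% of all genes, among them Jun (−0.78), Jund (−0.82), Ier2 (−0.81) and Junb (−0.70). Fos (0.19) was higher.

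Markers of other cells were read in the same sums. Among oligodendrocyte precursor genes Cspg4 was higher (1.79), while Pdgfra, Olig1 and Olig2 did not pass. Itm2a, of endothelium, was higher (1.19) and Igfbp7 was not called. The microglial genes C1qb (−3.26) and Csf1r (−1.80) were lower, the latter lost in 9 of 20 settings. Haemoglobin genes passed in neither direction, and their summed erythroid level in the Cajal-Retzius cells ranged from 400 to 8526 CPM, with mutant 12 the highest (5343 CPM of Hbb-bs against 277 to 1814 in the others). The part these sources play in the differences was not tested. Without the 90 Cajal-Retzius cells above 3 times their library's median depth, and without other barcodes as deep, 1784 genes passed, of which 1688 were among the 3233.

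Other neurons that express Reln were compared with the cells at a like Reln cut. The classes were split on Gad1, Gad2 and Lhx6, so differences in interneuron genes such as Dlx1 are not independent of the rule. Reln interneurons were 206 kept barcodes with at least 2 Reln UMIs and at least 1 UMI of Gad1, Gad2 or Lhx6 (17 to 42 an embryo, median 2334 UMIs), and 57 of the 206 also carried a second marker of the rule. Reln stood at 1054 to 5874 CPM in them. Of 3525 genes tested with edgeR, 299 were higher in the Cajal-Retzius cells (8.48%) and 260 lower (7.38%), 15.9% in all. The matrix protein Npnt led at 3.67, before the zinc transporter Tmem163 (3.18), 1500016L03Rik (3.09) and Thsd7b (3.05). Next came Cxcl12 (271 ± 94.7 against 27.1 ± 31.8 CPM, SD, n = 7), the prolyl isomerase Fkbp9 (2.97), Pcp4 (2.92) and the factor Dach1 (2.81). Npnt, 1500016L03Rik and Tmem163 had 6, 11 and 13 UMIs in all Reln interneurons together, so the size of their differences is uncertain. A gene could pass the count filter on the Cajal-Retzius sums alone. The neuregulin receptor Erbb4 was lower by the most, at 18.4 ± 10.6 against 430 ± 238 CPM (SD, n = 7; −4.38, SE 0.27), then the receptor partner Neto1 (−4.17), the synaptic adhesion gene Nrxn3 (−4.11), the interneuron factor Dlx1 (−3.63), Rph3a (−3.37), Ptprt (−3.13) and Grm5 (−2.55).

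Of the 30 genes of the Cajal-Retzius list 12 could be tested against the interneurons and 18 could not. Of the 12, 11 were higher, including Ebf3 (2.70), Calb2 (2.45), Slc17a6 (2.40), Emx2 (2.11), Zcchc12 (1.93), Nr2f2 (1.83) and Zic1 (1.76). Nr2f1 was lower (−0.57, lost in 10 of 21 settings). Since the count filter could be met by the Cajal-Retzius sums alone, the count of higher genes is partly set by it. In the reelin list 0 of 19 were higher and 4 lower, beside 8.48% and 7.38% of all genes. The lower genes were Serpini1 (−1.84), Dcx (−1.33), Dab1 (−0.74) and Lrp8 (−0.71). The Lrp8 call was lost in 5 of 20 settings. DESeq2 called 311 genes here, all among the 559 of edgeR. Without the barcodes above 3 times the median depth 178 were called of 1415 tested.

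Against excitatory neurons, which are also glutamatergic, 1423 of 9371 genes were higher (15.2%) and 1320 lower (14.1%), 29.3% in all. The 3 comparisons share the sums of the Cajal-Retzius cells, so their values stand side by side and are not independent. Ebf3 was at 217 ± 48.9 CPM in the Cajal-Retzius cells against 0.674 ± 0.742 in the excitatory neurons (SD, n = 7), which held 16 Ebf3 UMIs in 6623 barcodes. Car10 was at 120 ± 49.1 against 0.350 ± 0.296 CPM, and Mab21l1 at 66.1 ± 15.4 against 0.501 ± 0.469. The other 5 genes with the largest positive log2 fold changes, namely 1500016L03Rik, Kcnj5, RP24-351J24.2, P2rx5 and 5930412G12Rik, had 2 to 4 UMIs in all excitatory neurons together, so no ratio is given for them. Ebf3 was detected in 31.3% of the Cajal-Retzius cells and 0.211% of the excitatory neurons, and in 13.1% and 0.0517% after thinning.

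Of the Cajal-Retzius list 22 of 26 tested genes were higher and 2 lower against excitatory neurons, with a median of 3.11 beside −0.02 for all genes. Slc17a6 was 4.99-fold higher, Nr2f2 6.68-fold and Zic2 21.3-fold, while Nr2f1 (−0.56) was lower. Under the same limits, the 8 lowest of all genes included fibronectin (Fn1, −2.16), Sema3a (−2.15), Rassf2 (−2.08), Fbn2 (−2.06), Crym (−2.05), Adamts3 (−2.05) and Grp (−2.04). In the reelin list of 26 tested genes 5 were higher (Itga3 1.48, Src 0.63, Itgb1 0.52, Rap1b 0.35 and Pafah1b1 0.27). Another 10 were lower, led by Adamts3, Dab1 (−1.65) and Dcx (−1.28), and the list median was −0.19. Over all genes 15.2% were higher and 14.1% lower. The Rap1b and Cul5 calls were lost in 11 and 14 of 21 settings. Without the barcodes above 3 times the median depth 1579 genes passed.

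The comparison of the study, mutant against control, was then made within the Cajal-Retzius cells. Almost nothing passed. Of 4932 genes tested with edgeR 1 was higher in mutants (0.0203%) and 0 lower (0%), with 287 at an unadjusted p under 0.05. DESeq2 called 0 of the same genes at an adjusted p under 0.05 and 121 at an unadjusted p under 0.05. The genotypes did not overlap in 339 genes (6.87%). No gene of the 21 tested in the Cajal-Retzius list or the 21 in the reelin list passed, and their median log2 fold changes were 0.14 and −0.04 beside −0.00 for all genes. With mutants and controls drawn from 1 litter, the p-values measure the spread between these 7 embryos. Only mutants carried the Emx1CreERT2 allele, so its effects and those of Ash1l loss cannot be told apart.

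Reln, in the fit of this comparison, was at 16607, 13779, 16316 and 11511 CPM in mutants 10, 11, 12 and 17 and at 13204, 10001 and 8303 CPM in controls 14, 15 and 16. Mutant 17 lay below control 14, so the groups overlapped, and the log2 fold change of 0.47 (SE 0.18) did not pass (edgeR adjusted p = 0.708). Ash1l did not pass either, with −0.27 (SE 0.28, adjusted p = 0.925) from 261 UMIs. The rule's other genes lay between −0.20 (Lhx5) and 0.28 (Lhx1). Dab1 had a log2 fold change of −0.53 (SE 0.30) and Dcx one of −0.49 (SE 0.20), with adjusted p of 0.832 and 0.785. Ebf3 (−0.09, SE 0.23), Cxcl12 (0.01, SE 0.26) and Lrp8 (0.00, SE 0.26) had log2 fold changes below their standard errors in size, and Calb2 had 0.23 (SE 0.21). In the immediate early list 10 of 11 tested genes had negative log2 fold changes, with a median of −0.34, and none passed. Of all 4932 genes tested, 2470 were negative. In the difference of genotype effects between these cells and all other kept barcodes, 9 of 15 genes of this list were negative. Their median was −0.06, and only Npas4 passed.

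The only gene called was n-R5-8s1, annotated as a ribosomal RNA. It was at 52.9, 58.3, 104.5 and 56.2 CPM in mutants 10, 11, 12 and 17 and at 4.54, 4.89 and 5.69 CPM in controls 14, 15 and 16, from 47 UMIs in 41 barcodes. Mutants 10, 11, 12 and 17 held 12, 9, 11 and 11 of those UMIs, and controls 14, 15 and 16 held 1, 1 and 2. The log2 fold change was 3.50 (SE 0.61, 11.3-fold; edgeR adjusted p = 0.0169), and the call was lost in 8 of 14 alternative settings, among them the omission of mutant 10, 11 or 12 or of control 15 or 16. In the other kept barcodes it was at 37.0, 27.7, 48.8 and 18.8 CPM in the mutants and 21.8, 10.1 and 9.59 CPM in the controls, which overlapped. The gene is a copy of a repeated family, so its reads are uncertain as those of a single locus.

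Of the 8 genes with the smallest p, the other 7 did not pass the adjustment and are given as values. Npas4, an activity-dependent transcription factor, was at 26.5, 45.4, 19.0 and 61.3 CPM in mutants 10, 11, 12 and 17 and at 90.8, 156 and 111 CPM in controls 14, 15 and 16 (log2 fold change −1.57, SE 0.35, edgeR adjusted p = 0.258). Spr, the sepiapterin reductase of tetrahydrobiopterin synthesis, was at 92.6, 143, 124 and 76.6 CPM in the same mutants and at 54.5, 44.0 and 28.4 CPM in the controls (1.37, SE 0.34, adjusted p = 0.636). In neither gene did the genotypes overlap. Spr was at 58.5 to 93.1 CPM in mutants and 27.3 to 30.5 CPM in controls among the other kept barcodes. The lipid transporter Abca3 (1.15), the kinase Sik3 (1.63) and Dcaf11 (1.06) had positive values, and the adhesion protein Tenm3 (−1.22) and the mitochondrial ribosomal RNA mt-Rnr1 (−0.56) negative ones, each with an adjusted p of 0.636. The mt-Rnr1 level was 8217 ± 352 CPM in mutants (SD, n = 4) and 12107 ± 1651 CPM in controls (SD, n = 3). This is the direction of the mitochondrial share, but mt-Rnr1 UMIs are part of that share, so the results are not independent. In all other kept barcodes mt-Rnr1 was likewise lower in every mutant than in every control, at 10470 to 12951 against 14035 to 16972 CPM. In excitatory neurons it was at 11024 to 13395 against 14072 to 16070 CPM. Esr1, the oestrogen receptor gene, had 4 UMIs in the 492 cells, all in mutants, and Npy had 20, of which 11 were in control 16. In the other kept barcodes Esr1 had 45, 59, 36 and 87 UMIs in mutants 10, 11, 12 and 17. Controls 14, 15 and 16 had 4, 12 and 5. For Spr and Esr1, as for all genes here, effects of the Cre allele and of Ash1l loss cannot be told apart.

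**Figure D5:**
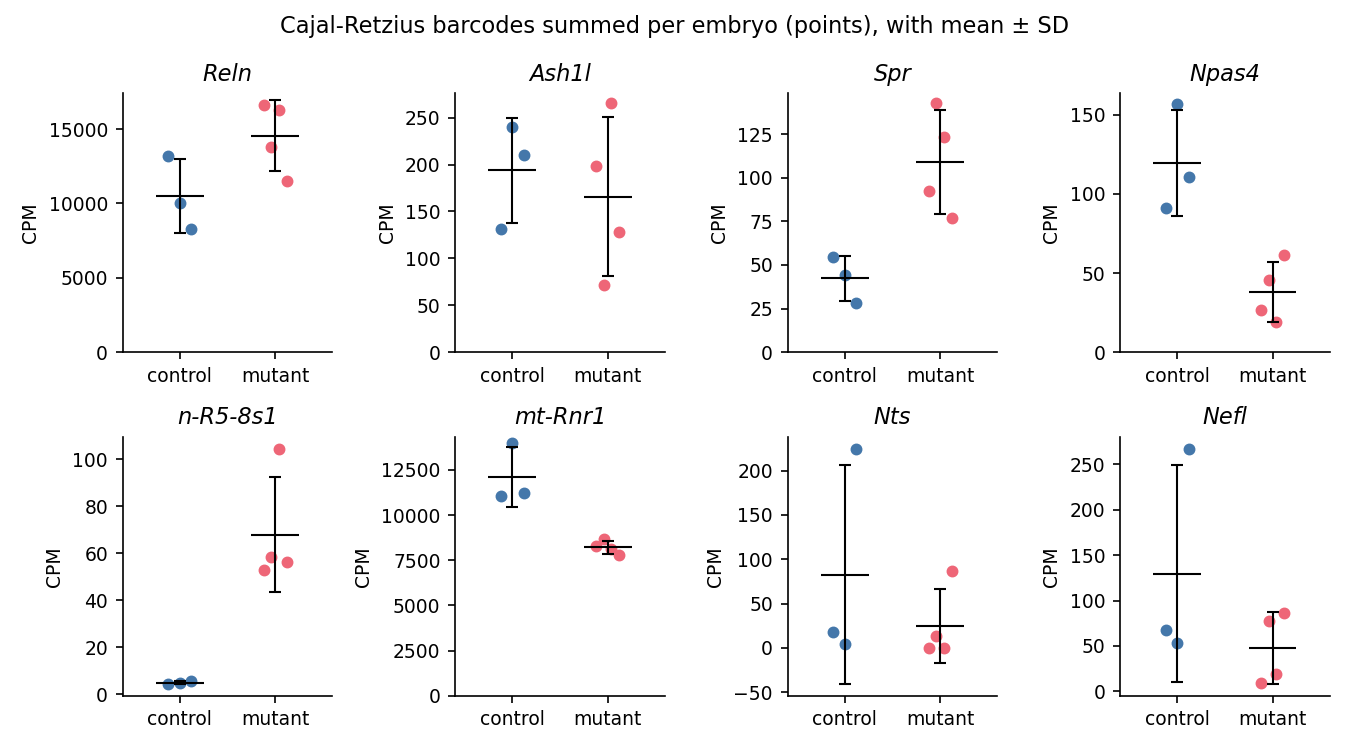
Level in CPM (y axes, each from its own scale) of Reln, Ash1l, Spr, Npas4, n-R5-8s1, mt-Rnr1, Nts and Nefl in the Cajal-Retzius cells of each embryo, with the mean and SD of the 4 mutants and the 3 controls; where the SD exceeds the mean, as for Nts, its bar runs below 0. The 4 mutants lie above the 3 controls for n-R5-8s1 and Spr and below them for Npas4 and mt-Rnr1, and control 16 stands far above all other embryos for Nts and Nefl.

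The genotype effect in the Cajal-Retzius cells was also set against that in all other kept barcodes, with the class by genotype term of an edgeR fit on 12353 genes. None was higher (0%) and 3 were lower (0.0243%), Nts, Npas4 and Nefl, with 557 genes at an unadjusted p under 0.05. DESeq2 called 0 of them, with 247 genes at an unadjusted p under 0.05. Npas4 had a difference of effects of −1.63 (SE 0.34, adjusted p = 0.00802), from 118 UMIs in 69 cells, of which the richest held 6.78%. In the other kept barcodes Npas4 was at 67.2 to 74.1 CPM in mutants and 64.0 to 81.8 CPM in controls. The Npas4 call was lost in 10 of 19 settings, with a negative difference in all of them, the nearest to 0 being −1.24.

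In the other pair control 16 held most of the UMIs. The neuropeptide gene Nts, with UMIs in 21 cells, had a difference of −2.54 (adjusted p = 5.97e-07), with 79 of its 103 UMIs in control 16 and 66.0% in a single barcode. Without control 16 the value was 0.40 and did not pass. The neurofilament gene Nefl, with UMIs in 57 cells, had a difference of −1.43 (adjusted p = 0.00802), with 94 of 153 UMIs in control 16 and 33.3% in a single barcode, and without control 16 it was −0.23 and did not pass. The 8 genes with the smallest p also took in Pdgfra, a receptor of oligodendrocyte precursors, with 15 UMIs in control 14 and 2 in control 15, of which 64.7% lay in a single barcode. Snhg11 (1.73, adjusted p = 0.0532), Nefm (−1.50, 0.0955), Gem (−2.27, 0.175) and Tenm3 (−1.18, 0.268) did not pass. The difference for Spr was 0.03 and that for Reln 0.19, neither of which passed.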

How the data were processed

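Single-cell RNA sequencing was done with Seq-Well on the cortices of 7 embryos, 1 library each. The authors deposited whole-number UMI counts per gene and barcode, aligned with STAR to mm10, per the submitters' processing notes. No source used here names a version of the aligner, the annotation counted on or the strand setting. Raw counts were read with Python 3.11.15 (pandas 2.3.3, numpy 2.4.6, scipy 1.17.1) and plotted with matplotlib 3.10.9. The members and the 23 gene lists were chosen with earlier results of these data known. Of 303 list entries 5 were matched by an older symbol and 1 had no row. No doublet caller was run, and 90 members were above 3 times their library's median depth.

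Counts were summed per embryo and class and tested in R 4.3.3 with edgeR 4.0.16 (TMM, filterByExpr, quasi-likelihood test) and limma 3.58.1, with Benjamini-Hochberg adjustment over all genes tested. The 10 rule genes, and Neurod2 and Neurod6 against excitatory neurons, were left out of the tests between classes. Comparisons of classes had the embryo as a block, since both sums come from 1 embryo. Genotypes share no replicate numbers and were compared without a block. DESeq2 1.42.0 was an alternative. CPM are UMIs scaled to 1000000 per TMM-scaled total, computed in each fit, so a level can differ slightly between comparisons. Scripts were tested on simulated counts.

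Text names the rule genes, the Cajal-Retzius and reelin lists, Ash1l, Spr, Esr1 and Npy. Of genes with an adjusted p under 0.05, the same direction in every embryo and at least 10 UMIs in the members, it names the 20 highest and 10 lowest against all other kept barcodes and the 8 highest and lowest in the other class comparisons. For genotype it names the 8 with the smallest p, and of the other lists up to 4 examples each by p, with others added to describe a list. Some genes that these rules name are not reported here. Gene positions come from the GENCODE annotation of mm10, and promoter windows from RefSeq. Alternatives changed the limits on genes, mitochondrial share, Reln and second markers, the depth, the normalisation, the test, the count filter and the embryos, and thinned barcodes to 1000 UMIs. Leaving out control 16 and mutant 17 together was added after seeing the data.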

Additional observations from a re-analysis of the deposited data

Results flagged for a closer look

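In the Cajal-Retzius cells of mutant 12, n-R5-8s1 was at 104.53 CPM, above the other 3 mutants at 52.9 to 58.3 CPM. The gap to the nearest was 0.895 of the group's range. The value rests on 11 UMIs, beside 12, 9 and 11 in mutants 10, 11 and 17. Mutant 12 also had the smallest total, 109852 UMIs in these cells, to which the CPM are scaled. Its value was the only such one among 20 groups of mutants checked, and chance alone gives about 1 in 20.

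For 3 genes the genotype effect in Cajal-Retzius cells differed from that in all other kept barcodes by the class by genotype term of edgeR. The log2 difference was −2.54 for Nts, −1.63 for Npas4 and −1.43 for Nefl. Control 16 held 79 of the 103 Nts UMIs and 94 of the 153 Nefl UMIs, and a single barcode held 66.0% and 33.3% of them. The 118 Npas4 UMIs were spread over 69 cells, and their CPM were lower in all 4 mutants than in every control.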

How the results depend on the processing

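Without barcodes above 3 times the median depth, the genes past the threshold were 1784 in place of 3233 against all other kept barcodes, 178 in place of 559 against Reln interneurons and 1579 in place of 2743 against excitatory neurons. DESeq2 gave 311 against Reln interneurons. Under the other alternatives run, these 3 counts stayed within 1.5 times their values. Slc1a3 against excitatory neurons turned from −0.57 to 0.35 without the deep barcodes. The cause of these changes was not tested.

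The genotype count of 1 became 0 with a mitochondrial share of at most 5%, Reln of at least 3, second markers of at least 2, transcription factor markers only, no deep barcodes, DESeq2, a mean of at least 10 UMIs, or without control 16 and mutant 17 together, and 9 with no count filter. Leaving out each embryo gave 0 to 5. The count of 3 for the difference of genotype effects became 10 with at least 800 genes, 1 with a mitochondrial share of at most 5%, 5 with second markers of at least 2, 1 with transcription factor markers only, 0 with DESeq2 and 5 with a mean of at least 10 UMIs, and 1 to 10 without each embryo. Nts turned to 0.80 with Reln of at least 3, 0.37 with second markers of at least 2 and ranged from −4.81 to 0.40 without each embryo, the highest being without control 16, while Nefl turned to 0.20 without deep barcodes. The difference in share of −0.184 percentage points became 0.0204 after thinning and ranged from −0.377 to 0.0592 without each embryo.

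Without the embryo as a replicate block, 2860, 495 and 2329 genes passed in the comparisons with all other kept barcodes, Reln interneurons and excitatory neurons. No paired analysis was possible because mutants and controls share no replicate numbers.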
